A study of Homo sapiens with 12 samples.

Results

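The genes described here were the replication-dependent histone genes, taken by their symbols as the H1-1 to H1-5 genes and the H2AC, H2BC, H3C and H4C genes. GENCODE annotates 68 such genes, and 55 of them were among the 12357 genes counted: 4 of type H1, 13 of H2A, 17 of H2B, 10 of H3 and 11 of H4. Ribosome footprints were sequenced from 3 wild-type lymphoblastoid lines, that is, B cells immortalised with Epstein-Barr virus, named GM18505, GM19193 and GM19204. Each line gave an arsenite culture, exposed to sodium arsenite for 30 min, and a control culture that received water, so that n = 3 cell lines in each condition and each line is a single culture pair. Every culture was sequenced in 2 libraries named T and U, with rRNA depletion by CRISPR in the T set, and their counts were summed because they are technical replicates of 1 sample. Synthetic spike-in RNA oligomers had been added in proportion to the digested RNA of each sample, not to its number of cells. The footprint counts below are on the scale those oligomers set.

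Histones are the proteins around which DNA is wound: H2A, H2B, H3 and H4 form the nucleosome core, and H1 binds the linker DNA between cores. The replication-dependent genes lie in clusters, are transcribed mainly in S phase, and supply new histones as DNA is copied. Their mRNAs, unlike most, end in a conserved stem-loop instead of a poly(A) tail, and this stem-loop is bound by SLBP, which acts in their processing, translation and decay. Arsenite is an oxidative stressor that causes phosphorylation of the initiation factor eIF2α and a general reduction of translation initiation.

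Counts in genes were 1326231 to 2448947 per arsenite sample, against 5114266 to 6467049 per control sample. The spike-in scale corrected these samples by log2 values between -0.247 and 0.392, with standard errors of 0.073 to 0.163 set by 7 oligomers. On that scale the median log2 fold change of all genes was -1.78, with line medians of -1.89 (GM18505), -1.30 (GM19193) and -2.23 (GM19204). All 10 B-cell markers were counted, and none of the 5 T-cell, 3 myeloid or 3 erythroid markers was listed. Of 4 fibroblast and 3 epithelial markers, COL1A1, COL1A2 and EPCAM were listed, and COL1A2 had 239 reads in the arsenite culture of GM19193 against 10 to 20 reads in the other 5 samples. Their part in the results was not tested.

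Histone genes of a type encode nearly the same protein, so reads can be assigned to a gene only where synonymous codons differ, and reads that map to several places had been discarded before counting. The first 45 coding bases of 5 H4 genes show both cases, with capitals for the 15 positions at which the printed sequences differ. They lie at chr6:26204645-26204689 (+), chr6:26103948-26103992 (+), chr6:26285455-26285499 (-), chr1:149832685-149832729 (+) and chr1:149861087-149861131 (-) of GRCh38.
H4C5: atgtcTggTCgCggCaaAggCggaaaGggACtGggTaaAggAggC
H4C3: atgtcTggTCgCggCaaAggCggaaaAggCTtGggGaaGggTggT
H4C8: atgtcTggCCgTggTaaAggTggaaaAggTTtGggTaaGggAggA
H4C14: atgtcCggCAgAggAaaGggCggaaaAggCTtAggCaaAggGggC
H4C15: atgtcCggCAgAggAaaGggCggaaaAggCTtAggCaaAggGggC

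H4C8 differs from H4C5 and from H4C3 every few bases, whereas H4C14 and H4C15 are identical over the stretch. H4C5 and H4C3 are the same over the first part of it, long enough for a short read, and differ from each other only in the last part. Over 91 pairs of H4 coding sequences of equal length the identity ranged from 79.0% to 100%, with a median of 83.8%. For each of the 68 genes, the share of coding windows of 28 bases, about the length of a footprint, that occur once in the genome was computed. Its median over the 55 genes was 84.3%, and 11 of them were below 50%. With windows of 24 bases the median was 76.3%. The paper reports more short reads in these libraries than with its earlier protocol, and a lower proportion mapped uniquely. In its supplement, the proportion of mapped reads that mapped uniquely was lower in every arsenite library than in every control library. The loss of reads by multiple mapping may thus differ between the groups, and its effect on the histone genes was not tested. The lowest shares above 0 were 8.5% for H2BC18, 11.5% for H3C13, 12% for H2BC12, 12.9% for H2AC14 and 15.4% for H2AC13, and H2AC14 shared 85.4% of its windows with H2AC13. H4C15 had 0 such windows and a mean of 14.5 reads per sample, and reads of that length from its coding part could not be assigned to it. The 13 annotated genes not analysed here were H1-1, H2AC1, H2AC18, H2AC19, H2AC25, H2BC1, H3C4, H3C14, H3C15, H4C7, H4C11, H4C12 and H4C14, and 7 of these had no unique window: H2AC18, H2AC19, H3C14, H3C15, H4C11, H4C12 and H4C14. Levels of genes with few unique windows are therefore understated, and the fold change of such a gene rests on the part of it that is unique.

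**Figure D1:**
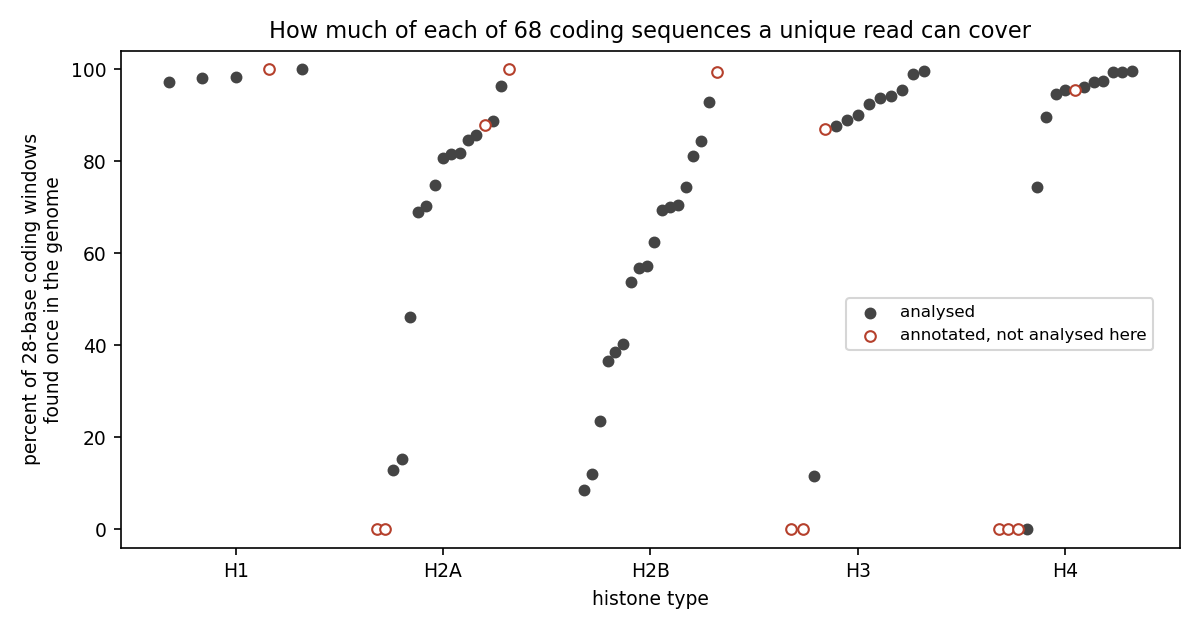
Percent of the 28-base coding windows of each of 68 annotated replication-dependent histone genes that occur once in GRCh38 (vertical axis), by histone type, with genes in ascending order within a type. Filled points are the 55 genes analysed and open points the 13 not analysed here. The 7 open points at 0 are genes whose coding sequence is wholly repeated elsewhere.

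On the spike-in scale, ribosome occupancy of the histone genes was lower under arsenite in all types. Relative to the median of all genes, H2B genes were mostly higher and H3 genes mostly lower. The H3 median lay closer to that of genes with a high count, given below. Of 55 genes, 50 fell and 0 rose in the quasi-likelihood test of edgeR, adjusted after Benjamini and Hochberg over all genes. Every one of the 55 log2 fold changes was below 0, so 0 rose at an unadjusted p under 0.05 as well. Among all 12357 genes 74.1% fell and 1.12% rose. That share depends on read depth. When the test was limited to the 8265 genes averaging 50 reads or more, 89.6% of them fell. Of the histone genes kept there, 48 of 52 fell, so their share was close to that of all genes. The median log2 fold changes were then -1.79 for the histone genes and -2.1 for all genes kept. With limma, in the study's model without normalization, 48 histone genes and 75.3% of all genes fell. With a version of RUVg, which removes variation seen in the oligomers ranked by their concentration, 53 and 77.4% fell. The median log2 fold change of the 55 genes was -1.78, equal to the median of all genes, and the values ran from -3.64 (H2AC11) to -0.53 (H2BC18 and H2AC7). In 51 of 55 genes every arsenite sample was below every control sample, which was so for 68.7% of all genes. The 5 genes that did not pass were H2BC15, H2BC6, H2BC14, H2BC18 and H2AC7. The standard errors were 0.36 to 0.50. When GM18505 was left out, 25 of 55 passed, as did 54.3% of all genes, with a median of -1.74. RNA abundance was not measured, so a lower mRNA level, fewer ribosomes per mRNA and fewer cells in S phase cannot be told apart. The scale is per amount of digested RNA and not per cell, and RNA per cell was not measured.

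Whether a single histone gene changed more or less than the bulk of genes was read from the fit with TMM scaling, which sets the typical gene near 0 and moved the median of all genes by 1.81, to 0.03. In that fit 19 of the 55 histone genes were lower and 19 higher under arsenite, against 26.6% of all genes lower and 27.8% higher. These shares of all genes are not matched for read count. By type, H2B had 11 of 17 genes higher and 0 lower, H3 had 0 of 10 higher and 8 lower, H4 had 3 of 11 higher and 4 lower, H2A had 4 of 13 higher and 5 lower, and H1 had 1 of 4 higher and 2 lower. At an unadjusted p under 0.05 there were still 0 H2B genes lower, and 1 H3 gene was higher. DESeq2 with its own size factors gave 10 H2B genes higher and 0 lower, and 0 H3 genes higher and 8 lower. The difference between types was not tested. Histone genes are also among the more densely occupied genes: 47 of the 55, and 1462 of all genes, had a mean of at least 500 reads per sample, a threshold chosen after the values were seen. The median log2 fold change on the spike-in scale was -1.78 for these 47 and -2.40 for the 1462. By type, it was -2.03 for H1, -1.92 for H2A, -1.31 for H2B, -2.60 for H3 and -1.88 for H4. Only H3 thus lay below the median of the 1462, and the difference was not tested.

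**Figure D2:**
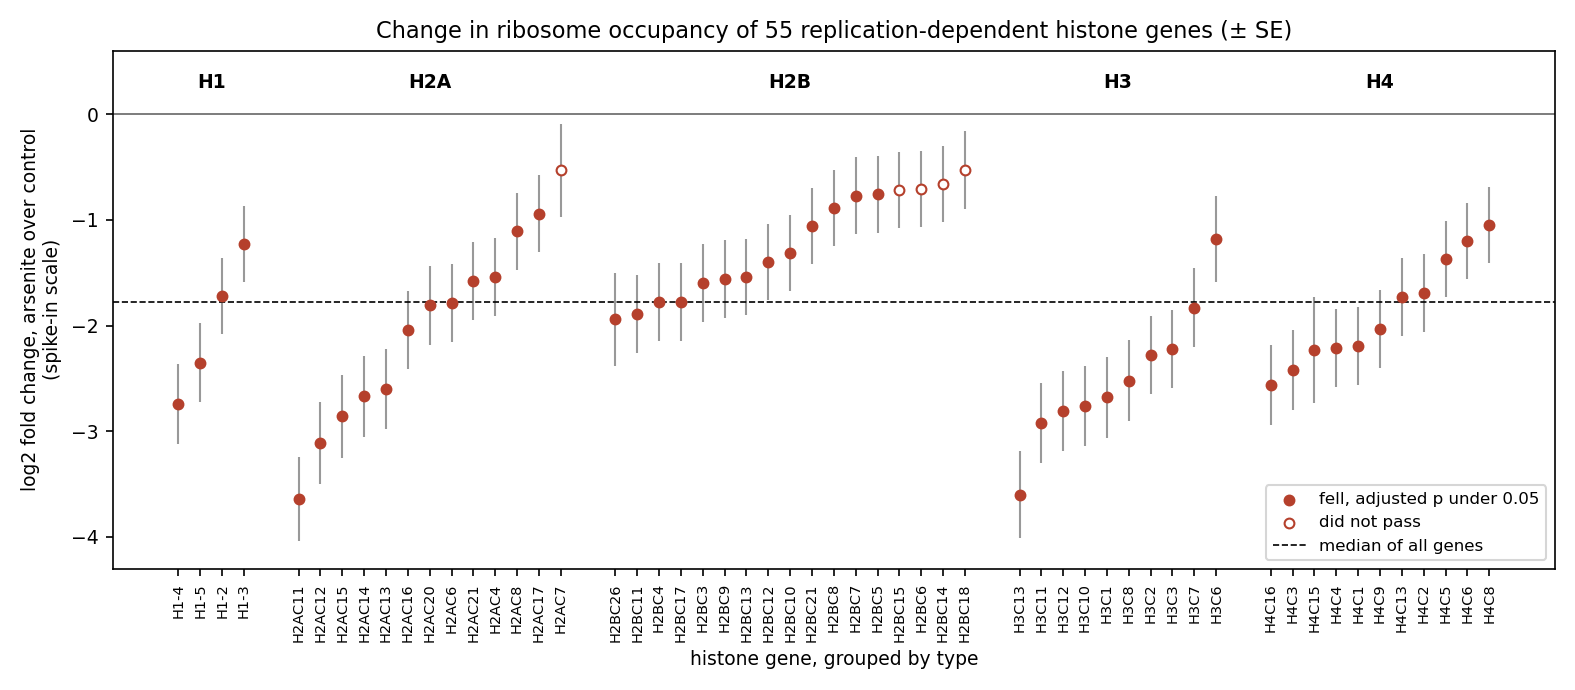
Log2 fold change of footprint counts, arsenite over control on the spike-in scale (vertical axis), for the 55 histone genes grouped by type and ordered by value, with bars of ± 1 SE. Filled points fell in edgeR's test, open points did not pass, and the dashed line is the median of all genes at -1.78. H2B genes lie between -1.94 and -0.53, 11 of them higher with TMM scaling, and H3 genes between -3.60 and -1.18.

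H1 linker histones were the longest coding sequences and gave some of the highest counts. H1-4 (chr6:26156329-26157115) had spike-in scaled counts of 2200, 2850 and 1920 in arsenite cultures of GM18505, GM19193 and GM19204, against 15200, 14600 and 16200 in the control cultures. Its log2 fold change was -2.74 ± 0.38 (SE, edgeR adjusted p = 1.2e-11), and all arsenite cultures were far below all control cultures. H1-5 (chr6:27866792-27867588) had 2530, 3980 and 2350 counts under arsenite, against 13300, 16600 and 14100 in control. It fell by 2.35 on the log2 scale (adjusted p = 2e-09). H1-2 (chr6:26055740-26056470) had 3370, 5150 and 3550 counts under arsenite, against 11400, 15300 and 12500 in control, and fell by 1.72 (adjusted p = 5.8e-06). H1-3 fell by 1.23 (adjusted p = 0.0011). These genes thus held the order H1-4, H1-5, H1-2, H1-3 in each of the 3 lines, from -2.79 to -1.19 in GM18505, from -2.36 to -1.05 in GM19193 and from -3.08 to -1.45 in GM19204. Relative to the typical gene under TMM scaling, H1-4 was lower at -0.92 (edgeR adjusted p = 0.00014), H1-5 lower at -0.53 (0.0031), and H1-3 higher at 0.59 (0.0035), while H1-2 at 0.10 did not pass (0.52).

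H2A had the widest range of the types on the spike-in scale, with 12 of 13 genes that fell and log2 fold changes from -3.64 to -0.53, while TMM put 5 below and 4 above the typical gene. H2AC11 (chr6:27133043-27133535) had 381, 682 and 354 scaled counts under arsenite, against 5480, 5390 and 6010 in control, so that arsenite cultures kept 8.39% of the control mean. Its log2 fold change of -3.64 ± 0.40 (SE, edgeR adjusted p = 2.1e-16) was the lowest among the 55 genes. H2AC12 (chr6:27147106-27147562), from the same stretch of chromosome 6, had 438, 772 and 421 counts under arsenite, against 4010, 4650 and 4960 in control. It fell by 3.11 (adjusted p = 1.7e-13). H2AC8 (chr6:26216921-26217437), the H2A gene with the most reads, had 2620, 4050 and 3160 counts under arsenite, against 5980, 7180 and 7890 in control. It fell by only 1.11 (adjusted p = 0.0031), and with TMM it was higher than the typical gene at 0.71 (0.00087). The decrease on the spike-in scale was no longer called without GM18505 (adjusted p = 0.23) or GM19204 (0.11), or with no scaling (0.077). All of these genes encode H2A for the nucleosome core, yet arsenite cultures kept 46.7% of the control level for H2AC8 and 12% for H2AC12. H2AC7 had the fewest reads of the H2A genes, 14, 22 and 18 under arsenite against 23, 32 and 19 in control, overlapped another annotated gene and did not pass (-0.53, adjusted p = 0.27). The H2A sum rests in part on 1 gene: its log2 ratio was -1.97 ± 0.33 (SD, n = 3) and -2.30 without H2AC8.

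H2B genes fell least on the spike-in scale, and with TMM 11 of them were higher than the typical gene. Of 17, 13 fell and 4 did not pass, with a median of -1.31 and values from -1.94 to -0.53. H2B also had the lowest median share of unique windows, 57.3%, against 80.7% for H2A, 93.05% for H3, 96.1% for H4 and 98.25% for H1. Whether this takes part in the smaller decrease of H2B was not tested. H2BC14 (chr6:27815022-27815489) had 2260, 3070 and 2420 scaled counts under arsenite, against 3850, 3820 and 4530 in control. The groups did not overlap, but the log2 fold change of -0.66 ± 0.36 did not pass (SE, edgeR adjusted p = 0.084). With the alternatives that passed it, the value stayed between -0.84 and -0.57 (adjusted p = 0.021 with DESeq2, 0.0011 with RUVg, 3e-04 over 12 libraries and 0.00098 without GM19193). Under TMM scaling H2BC14 was higher at 1.16 (adjusted p = 8e-05). H2BC8 (chr6:26216200-26216688) had 2170, 2790 and 2060 counts under arsenite, against 4060, 4130 and 4680 in control. It fell by 0.89 (adjusted p = 0.019), a call that was lost when GM18505 (adjusted p = 0.35) or GM19204 (0.23) was left out, with T libraries alone (0.054) and with no scaling (0.16). H2BC9 (chr6:26251614-26252075) had 1280, 1960 and 1280 counts under arsenite, against 3760, 4410 and 5040 in control, and fell by 1.56 (adjusted p = 3.9e-05, and 0.087 without GM18505). H2BC18, on chromosome 1 and with few unique windows, had 232, 255 and 222 counts under arsenite, against 371, 292 and 366 in control, and did not pass at -0.53 (edgeR adjusted p = 0.19). It passed with RUVg (limma adjusted p = 0.0045), over 12 libraries (edgeR, 0.0083) and without GM19193 (edgeR, 0.0063). With DESeq2 on the spike-in scale it did not pass (adjusted p = 0.094).

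H3 genes had the lowest median of the types, with 10 of 10 that fell and a median log2 fold change of -2.60. H3C2 (chr6:26031589-26032099) had 6680 scaled counts per 1000 coding bases under arsenite and 31200 in control, the highest control level of the 55 per coding length. Under arsenite H4C5 (11000), H4C8 (10800), H2AC8 (8400) and H2BC14 (6840) were above it. Its scaled counts were 2210, 3880 and 2090 under arsenite, against 11500, 14300 and 12300 in control, and it fell by 2.28 on the log2 scale (edgeR adjusted p = 5.9e-09). H3C3 (chr6:26045384-26045869) had 1510, 2500 and 1790 counts under arsenite, against 7730, 9210 and 9620 in control, and fell by 2.22 (adjusted p = 1.3e-08). H3C7 (chr6:26250142-26250635) had 1890, 2650 and 1780 counts under arsenite, against 6390, 7830 and 7910 in control, and fell by 1.83 (adjusted p = 1.8e-06). In every one of these genes the highest arsenite culture, GM19193, was well below the lowest control culture. H3C13 (chr1:149813225-149813693), of the chromosome 1 cluster, had 51.8, 105 and 47.2 counts under arsenite, against 793, 800 and 749 in control. Its log2 fold change of -3.60 ± 0.41 (SE, adjusted p = 7.8e-16) was close to that of H2AC11, but only 11.5% of its windows are unique and it shares 51.7% of them with H3C15. H3C6, with a mean of 46.8 reads, had the smallest decrease of the type at -1.18 (adjusted p = 0.0064).

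H4 genes fell in 11 of 11 cases on the spike-in scale, although 3 were higher with TMM, with a median of -2.03 and values from -2.56 to -1.05. H4C3 (chr6:26103933-26104337) had 1410, 2190 and 1430 scaled counts under arsenite, against 7930, 8960 and 9530 in control, and fell by 2.42 (edgeR adjusted p = 1e-09). H4C5 (chr6:26204610-26205021) had 2920, 4320 and 2980 counts under arsenite, against 7900, 9260 and 8840 in control, and fell by 1.37 (adjusted p = 0.00028, and 0.13 without GM18505). H4C8 (chr6:26277609-26285638) had 3000, 3910 and 3060 counts under arsenite, against 5970, 6900 and 7660 in control, and fell by 1.05 (adjusted p = 0.0056), a call lost without GM18505 (0.23) or GM19204 (0.15), or with no scaling (0.097). Mean control counts were 8810 for H4C3, 8670 for H4C5 and 6840 for H4C8, and arsenite cultures kept 19.1% of the control mean for H4C3, 39.3% for H4C5 and 48.6% for H4C8. H4C3 and H4C8 were lower and higher than the typical gene under TMM scaling, at -0.60 (adjusted p = 0.00094) and 0.77 (0.0007). Their coding sequences, whose first bases are printed above, had over 99% of windows unique (99.3% for H4C3 and 99.6% for H4C8), and both encode the same H4 chain. An exon of another annotated gene overlaps the coding part of H4C8, which is not so for H4C3, and its effect on the reads was not tested. The lone gene of chromosome 12, H4C16, chosen after its values were seen, had 423, 564 and 436 counts under arsenite, against 2810, 2840 and 2690 in control, and fell by 2.56 (adjusted p = 1.4e-10).

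Summed over the genes of a type, scaled counts under arsenite were 10900, 16600 and 10700 for H1, 7760, 11400 and 7910 for H2A, 16400, 20900 and 15800 for H2B, 8790, 14200 and 8820 for H3, and 12900, 19200 and 14800 for H4, in GM18505, GM19193 and GM19204. In control they were 46400, 56200 and 50700 for H1, 31600, 34900 and 37900 for H2A, 38300, 38200 and 44100 for H2B, 47700, 57300 and 56200 for H3, and 43700, 51500 and 56200 for H4. No sum under arsenite reached any control sum of its type. The mean log2 ratio over the 3 lines was -1.19 ± 0.31 for H2B, -1.70 ± 0.25 for H4, -1.97 ± 0.33 for H2A, -2.03 ± 0.25 for H1 and -2.37 ± 0.33 for H3 (SD, n = 3). H2B had the smallest and H3 the largest decrease in each line: -1.22 and -2.44 in GM18505, -0.87 and -2.01 in GM19193, and -1.48 and -2.67 in GM19204. H2A and H1, neighbours in this order, differed by less than the spread between lines.

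Shares of the histone counts do not depend on the spike-in scale. H2B took 28.9%, 25.4% and 27.3% of all counts of the 55 genes under arsenite, against 18.5%, 16.1% and 18% in control. H3 took 15.5%, 17.2% and 15.2% under arsenite, against 23%, 24.1% and 22.9% in control. The groups did not overlap for either type, and H2B had the highest share of the 5 types under arsenite and the second lowest in control. H1 and H2A shares were lower under arsenite, without overlap (19.3% ± 0.887 and 13.7% ± 0.116, against 22.2% ± 1.46 and 15.1% ± 0.417 in control), and the H4 share was 23.8% ± 1.46 under arsenite against 21.9% ± 0.956 in control (SD, n = 3 each). The H4 groups overlapped, but within each line the arsenite share was the higher, at 22.7% against 21%, 23.3% against 21.6% and 25.5% against 22.9%. All 55 genes together made up 3.64%, 3.25% and 3.26% of gene counts under arsenite, against 3.92%, 3.92% and 3.51% in control.

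**Figure D3:**
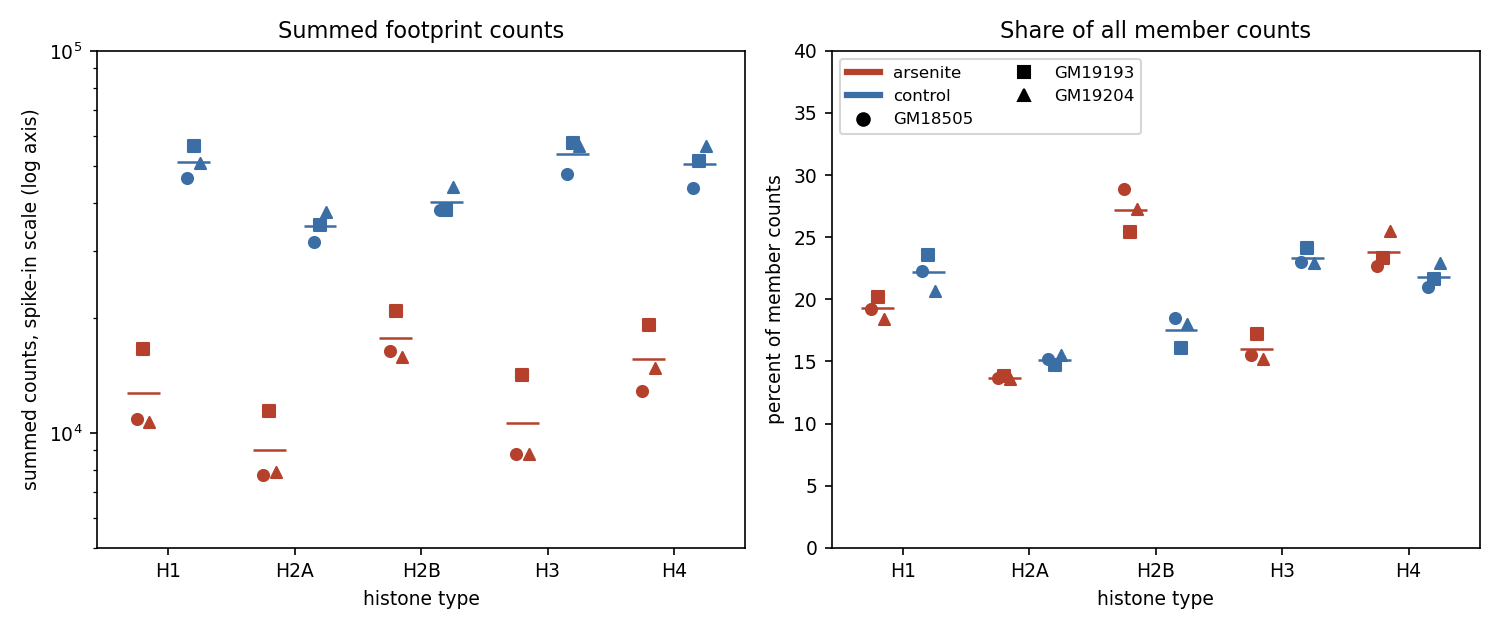
Left, footprint counts summed over the genes of each histone type on the spike-in scale (log axis). Right, each type's percent of the counts of the 55 genes. Red symbols are arsenite and blue symbols control cultures of GM18505 (circle), GM19193 (square) and GM19204 (triangle), and lines are means. H2B takes 25.4% to 28.9% in arsenite cultures and 16.1% to 18.5% in control cultures, and H3 15.2% to 17.2% in arsenite cultures and 22.9% to 24.1% in control cultures.

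By position, 47 of the 55 genes belong to the large cluster on chromosome 6, which falls into 3 stretches more than 500000 bases apart. The 28 genes of the stretch that begins the cluster had a median log2 fold change of -1.58, the 5 genes of the middle stretch, with H2AC11 and H2AC12, -2.03, and the 14 genes of the last stretch -2.19. Their summed counts had log2 ratios of -1.70 ± 0.27, -2.40 ± 0.37 and -2.08 ± 0.29 (SD, n = 3). The stretches also differ in the histone types they hold, and the middle stretch has no H1 or H3 gene. Position and type can thus not be told apart here. The 6 genes of the chromosome 1 cluster that holds H3C13 and H2BC18 had a median of -1.69 and the full range from -3.60 to -0.53. The first stretch supplied 71.2%, 72.9% and 73.8% of the histone counts under arsenite, against 65.4%, 67.1% and 67.0% in control.

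Most H2A genes share a short start region with an H2B gene that runs the other way, so that both are driven from 1 stretch of DNA. Of 12 annotated pairs of this kind, 10 had both partners counted, and in most of them the partners' values lay apart. The H2A gene had the lower log2 fold change in all 3 lines in 7 pairs, and the H2B gene in 1 pair, H2AC17 and H2BC17. For H2AC15 minus H2BC15 the difference was -2.17, -2.16 and -2.14 in GM18505, GM19193 and GM19204, a mean of -2.16 ± 0.02 (SD, n = 3). For H2AC14 minus H2BC14 it was -1.81, -2.10 and -2.13, a mean of -2.01 ± 0.18. In H2AC17 and H2BC17 it was 0.84 ± 0.14, and in H2AC6 and H2BC4 it was -0.01 ± 0.09. An annotated exon of H3C12, on the same strand, overlaps the coding part of H2AC17, and its effect on the reads of H2AC17 was not tested. An exon of another annotated gene overlaps the coding part of H2BC4, and its effect was not tested either. The differences do not depend on the spike-in scale, and over the 10 pairs their mean was -0.86 with an SD of 1.04 between pairs. Whether reads shared among H2A copies take part was not tested; H2AC14 has 12.9% unique windows and H2BC15 36.5%.

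**Figure D4:**
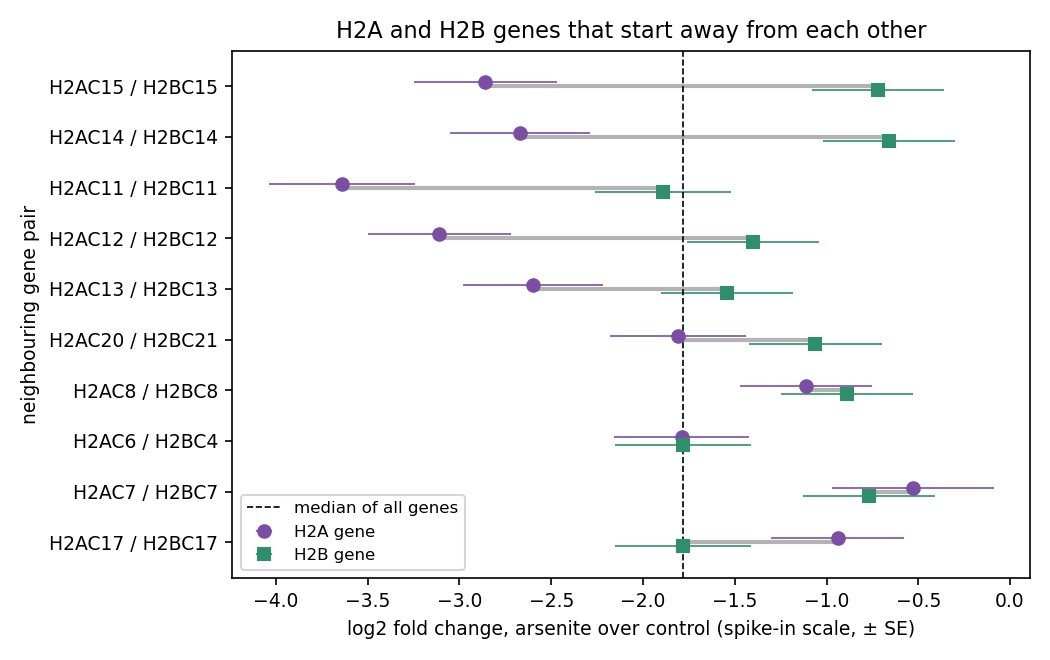
Log2 fold change, arsenite over control on the spike-in scale with bars of ± 1 SE (horizontal axis), of the H2A gene (circle) and H2B gene (square) in 10 pairs that start away from each other, ordered by their difference. The dashed line is the median of all genes. H2AC14 and H2BC14 lie at -2.67 and -0.66, and H2AC6 and H2BC4 at -1.79 and -1.78.

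The DNA between the starts of a pair whose partners differed and of a pair whose partners did not is printed to show what the partners share, both in the direction of the H2B gene. The first is chr6:27814778-27815021 (+) and the second chr6:26123927-26124144 (-) of GRCh38. Capitals mark the octamer ATTTGCAT, to which OCT1 binds, the TATA element TATAAA and the CCAAT element, each on either strand, and none of the marked motifs overlaps another kind.
H2AC14-H2BC14: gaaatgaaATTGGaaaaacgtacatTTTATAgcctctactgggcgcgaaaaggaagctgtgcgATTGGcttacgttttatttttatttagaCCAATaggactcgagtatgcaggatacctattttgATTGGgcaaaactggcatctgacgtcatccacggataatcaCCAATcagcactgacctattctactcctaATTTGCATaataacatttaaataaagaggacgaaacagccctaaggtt
H2AC6-H2BC4: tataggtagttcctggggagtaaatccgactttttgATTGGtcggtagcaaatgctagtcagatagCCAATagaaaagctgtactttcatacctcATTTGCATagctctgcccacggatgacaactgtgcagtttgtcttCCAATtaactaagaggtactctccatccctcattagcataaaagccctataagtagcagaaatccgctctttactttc

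Both stretches held 1 octamer and several CCAAT elements, and the first also held a TATA element. Over all 12 stretches, of 169 to 250 bases, the octamer was found in 9, TATAAA in 8 and CCAAT in 12. In the 244 bases before the start of 35116 RefSeq genes on GRCh38, the octamer was found in 1.61%, TATAAA in 10.44% and CCAAT in 31.58%. Among RefSeq promoters of 300 bases, 63 of the 68 histone genes were listed and 26 of those held the octamer, against 1.77% of all. The 23 counted genes with an octamer had a median log2 fold change of -1.54, and the 27 listed genes without it one of -2.03. All 23 are H2A or H2B genes and no counted H1, H3 or H4 gene with a listed promoter held the octamer, so that the contrast is also one of histone type.

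The stem-loop at the end of the mRNA was looked for as a stem of 6 paired bases, beginning with GG, around a loop of 4, within 100 bases after the stop codon. It was found in 66 of the 68 genes, 26 to 71 bases after the stop codon, and in 60 of 19978 other protein-coding genes (0.3%). The commonest forms are printed as DNA with the arms of the stem in capitals, at chr6:26157095-26157110 (+) for H1-4, chr6:27815469-27815484 (+) for H2BC14, chr6:26031597-26031612 (-) for H3C2, chr6:26104317-26104332 (+) for H4C3 and chr6:26285131-26285146 (-) for H4C8.
H1-4: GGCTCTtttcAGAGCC
H2BC14: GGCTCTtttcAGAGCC
H3C2: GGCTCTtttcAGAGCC
H4C3: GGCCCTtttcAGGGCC
H4C8: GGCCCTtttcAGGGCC

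The form of H1-4, H2BC14 and H3C2 was found in 40 genes and that of H4C3 and H4C8 in 10, all of them H4, and there were 8 forms in all. H2BC14 at -0.66 and H1-4 at -2.74 thus carried the same stem-loop, as did H4C8 at -1.05 and H4C3 at -2.42. The pattern was not found in H2AC11 and H2AC15, which had log2 fold changes of -3.64 and -2.86.

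The order of the histone genes was alike in the 3 lines. Over the 55 genes, log2 fold changes correlated with Pearson's r of 0.97 between GM18505 and GM19193, 0.98 between GM18505 and GM19204 and 0.96 between GM19193 and GM19204. Between T and U libraries, which share the culture, r was 0.97. The median SD of a gene's log2 fold change over the lines was 0.31, and 0.20 after each line's median over all genes was subtracted. In all 3 lines, 21 genes were above and 22 below that line's median of all genes, and 12 were mixed. Among these genes, 11 of 17 H2B genes were above in all lines and 0 below, and 8 of 10 H3 genes were below and 1 above.

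Other properties of the genes were set beside the change in the same way. Over the 55 genes, which share their libraries and in part their sequence, r with the share of unique windows was -0.04, with the log2 mean count -0.16 and with GC content of the coding sequence -0.43. Within types, r with GC content was -0.40 over 13 H2A genes, 0.02 over 17 H2B genes, -0.61 over 10 H3 genes and -0.43 over 11 H4 genes. With the share of unique windows it was 0.41 over the H2A genes (Spearman's rho 0.64), -0.09 over H2B (-0.10), 0.54 over H3 (-0.04) and 0.26 over H4 (0.25). The median log2 fold change was -1.81 in the 11 genes with under 50% unique windows and -1.78 in the other 44. In the 13 genes with an annotated spliced transcript beside the usual intronless one it was -1.78, and in the 42 others -1.79. Each of the 68 coding sequences lies in a single exon.

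Cell lines differed in a few histone genes, which were looked for after the values had been seen. A term for cell line was called in 2 of 55 genes, H2BC26 and H2BC6, against 9.71% of all genes. H2BC26, on chromosome 1 at chr1:228458103-228463104, had 5 reads under arsenite and 13 in control in GM19193. It had 68 under arsenite and 350 in control in GM18505, and 69 and 216 in GM19204 (edgeR adjusted p for cell line = 3.7e-09). On the spike-in scale its log2 fold changes were -1.88, -1.58 and -2.15 (GM18505, GM19193 and GM19204), although its groups overlap because of GM19193. H2BC6 was lowest in GM18505, with 121 scaled counts under arsenite and 229 in control, against 555 and 713 in GM19193 and 658 and 1190 in GM19204 (adjusted p for cell line = 4.8e-05). H4C6 was also lowest in GM18505, at 1140 under arsenite and 2450 in control, but the cell line term did not pass (adjusted p = 0.13). Only 38.5% of the windows of H2BC26 and 53.8% of those of H2BC6 are unique, and a sequence difference between the lines was not tested.

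**Figure D5:**
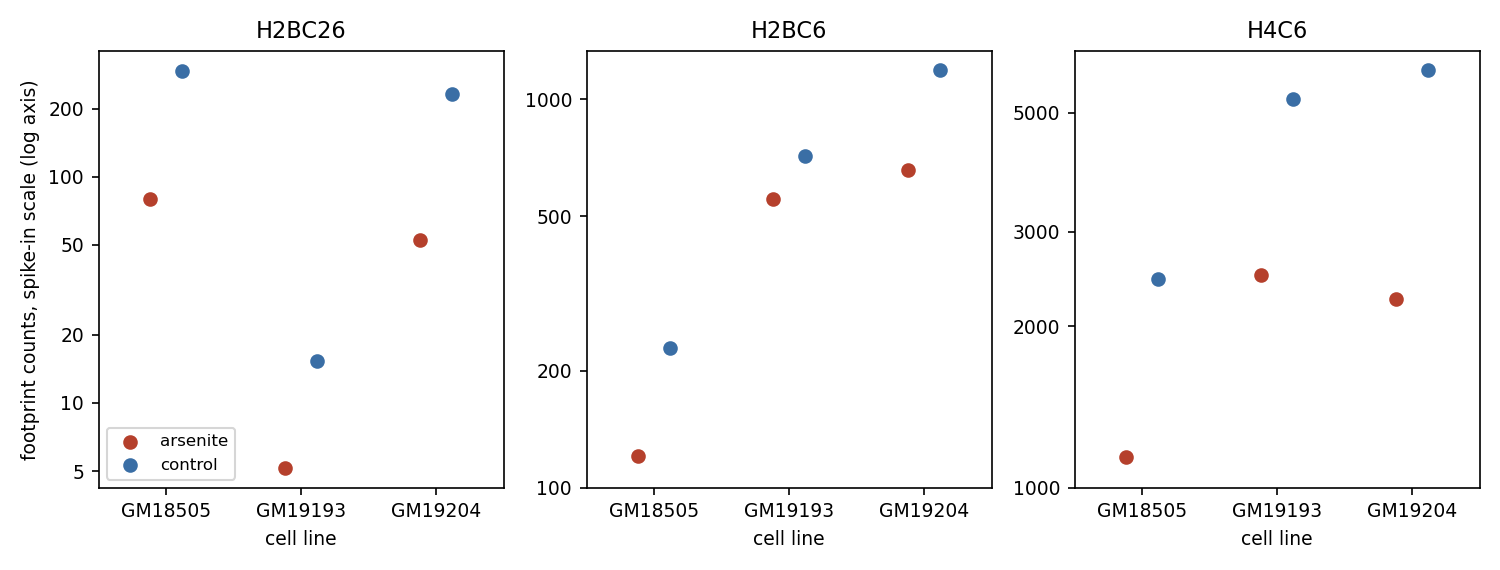
Footprint counts on the spike-in scale (log axis) of H2BC26, H2BC6 and H4C6 in the arsenite (red) and control (blue) culture of each cell line. H2BC26 is at 5.16 and 15.4 in GM19193 and between 52.6 and 295 in the other lines, and H2BC6 and H4C6 are lowest in GM18505.

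Replacement histones, which are made outside S phase too and from polyadenylated mRNA in most cases, were set beside these genes. Of 11 counted, 10 fell and 0 rose, with a median log2 fold change of -2.33. That was against 74.1% and 1.12% of all genes, and 89.6% fell among those with a mean count of at least 50 (median -2.1). MACROH2A1, a large H2A variant, had 105, 226 and 86.9 scaled counts under arsenite, against 1090, 1280 and 1300 in control, and fell by 3.25 (edgeR adjusted p = 4.8e-14). H2AX, the H2A variant phosphorylated at DNA breaks, had 345, 509 and 306 counts under arsenite, against 2190, 2060 and 2090 in control, and fell by 2.49 (adjusted p = 4.4e-10). H2AJ had 35.3, 33.1 and 25.1 counts under arsenite, against 245, 140 and 260 in control, and fell by 2.75 (adjusted p = 7.2e-10). H3-3A and H3-3B, which encode replacement H3, had log2 fold changes of -2.34 and -2.33 (adjusted p = 3.7e-09 and 3.2e-09), near the median of the replication-dependent H3 genes. MACROH2A2, with a mean of 11.2 reads, did not pass (-0.25, adjusted p = 0.66). Under TMM scaling 8 of the 11 were lower, against 26.6% of all genes, and 0 higher (1 at an unadjusted p under 0.05), and with DESeq2 and its own size factors 5 and 0. The TMM share of all genes is not matched for read count.

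Genes for the transcription, processing and decay of histone mRNA fell in 30 of 31 cases and rose in 0, with a median of -2.39. The shares were 74.1% and 1.12% for all genes, and 89.6% fell among those with a mean count of at least 50 (median -2.1). SLBP, the stem-loop binding protein, had 92.9, 133 and 81.5 scaled counts under arsenite, against 781, 991 and 980 in control, and fell by 3.18 (edgeR adjusted p = 9e-14). CPSF2, of the complex that cleaves histone pre-mRNA, had 76.5, 128 and 69.3 counts under arsenite, against 627, 728 and 796 in control, and fell by 3.02 (adjusted p = 1.1e-12). NCBP1, a cap-binding subunit, had 70.6, 189 and 74.7 counts under arsenite, against 546, 756 and 680 in control, and fell by 2.70 (adjusted p = 6.2e-11). POU2F1, which encodes OCT1 and was the gene of the list that did not pass, had 81.2, 149 and 98.3 counts under arsenite, against 102, 119 and 150 in control, and did not pass (-0.21, adjusted p = 0.65). With TMM 17 genes of the list were lower and 2 higher, against 26.6% and 27.8% of all genes, shares that are not matched for read count.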

How the data were processed

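Ribosome footprints of 6 samples in 12 libraries were used, and every library matched the spike-in pool of its sample. The deposited values are whole-number counts per gene and oligomer. The authors trimmed reads, removed rRNA, tRNA and snoRNA reads, mapped to GRCh38 with TopHat2 and GENCODE release 37 junctions, allowing 2 mismatches, kept uniquely mapped reads, counted them with featureCounts of Subread and dropped any gene without 1 read or more per library. Tool versions: not given in the sources used here. Unique mapping lowers histone genes with near-identical copies. As strand use in counting is not stated, overlapping genes such as H2AC21 and BOLA1 may share reads. H2AC17 and H3C12 overlap on the same strand, so that theirs may be shared in either case.

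Counts of T and U were summed and tested with edgeR 4.0.16 (glmQLFit, glmQLFTest, two-sided) in R 4.3.3, with treatment and cell line as terms and library sizes from the 7 oligomers that had 10 or more reads per library. P-values were adjusted over 12357 genes at 0.05. The cell line pairs the samples: deviations of the 2 cultures of a line correlated at 0.699, 0.638 and 0.641 over 8265 genes, and those of different lines at -0.266 at most. Alternatives used TMM, no scaling, DESeq2 1.42.0 and limma 3.58.1 with a pseudocount of 0.25, the last also with RUVg (k = 3). RUVg was written anew after its published description. Its control rows were oligomers of the same rank by nominal concentration in each library, not the same oligomer throughout. The paper used the RUVSeq package with the oligomers themselves as control genes. On simulated counts with no shift common to all genes edgeR called 92% of genes raised and 80% of genes lowered by a log2 change of 2 in arsenite against control, 14% and 12% at a change of 1, and 0.0165% of the others among 12357 genes. With a common shift of -1.75 it called 95.2% of the other genes, 100% of those lowered by a further 2 and 8% of those raised by 2. Symbols and positions came from GENCODE release 44; 12343 identifiers had an annotation. Windows and motifs were searched in GRCh38 with Python 3 scripts.

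The histone genes, the lists and the tests were chosen with earlier results of these data known. Values per sample are given for the 3 genes of each type with the highest mean count, any that rose, and the 3 lowest and 3 highest log2 fold changes where the mean count was 20 or more, and from each other list the 3 genes of smallest p. H1-3, H4C16, H2BC26, H2BC6, H4C6, the gene pairs and the list genes that did not pass were added after their values were seen. Nothing states that cultures were repeated within a line, so p-values rest on 3 lines, with a dispersion that edgeR shares between genes. The standard errors of the histone genes, 0.36 to 0.50, thus do not follow a gene's own SD over the lines, which ran from 0.13 to 0.61.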

Additional observations from a re-analysis of the deposited data

How the results depend on the processing

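On the spike-in scale 50 histone genes fell and 0 rose. The cell line is the replicate block of the model: with no replicate block 48 fell, against 68.1% of all genes, with a median log2 fold change of -1.77. With TMM, 19 fell and 19 rose, with a median of 0.03 for all 55, 0.01 for H2A and 0.51 for H2B. DESeq2 size factors in edgeR gave 19 and 18 and DESeq2 with its own size factors, added after the data were seen, 19 and 17, with the same 3 medians. Of all genes, 26.6%, 26.7% and 21.6% fell with these 3 scalings. Values reversed under these scalings were 0.10 (H1-2), 0.71 and 0.70 (H2AC8), 1.16 (H2BC14), 0.93 (H2BC8), 0.25 (H2BC9), 0.45 (H4C5), 0.77 (H4C8), 1.29 (H2BC18), and 1.25 and 1.28 (H2AC7), since they set the typical gene near 0. As a share of all gene counts, the H2B sum had a log2 ratio of 0.48 and the sum over the chromosome 1 cluster of H3C13 0.12. Leaving out a cell line gave 25 to 54 genes that fell, against 54.3% to 78% of all genes. Over the other alternatives 42 to 54 fell, against 67.2% to 78.1% of all genes. With only genes of a mean count of at least 50, the share was 89.6%. For the genes named by rule, settings other than these scalings left the call as it was in 400 comparisons, lost it in 12 and gained it in 7. Genes with few unique windows or under 50 reads, such as H4C15 and H2AC7, are limited by counting error and by shared sequence.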

Other observations

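Histone chaperones and import factors, which carry new histones to DNA, fell in 29 of 30 cases and rose in 0 on the spike-in scale. Their median log2 fold change was -2.42. All genes had shares of 74.1% and 1.12%, and 89.6% fell among those with a mean count of at least 50 (median -2.1). NPM1, a nucleolar chaperone, had 373, 657 and 450 scaled counts under arsenite, against 5330, 5950 and 6790 in control, and fell by 3.64 (edgeR adjusted p = 1.7e-16). SSRP1, a subunit of FACT, had 131, 217 and 131 counts under arsenite, against 1490, 1790 and 2070 in control, and fell by 3.51 (adjusted p = 8.5e-16). NAP1L1, a chaperone of H2A and H2B, had 268, 501 and 230 counts under arsenite, against 2660, 4050 and 3020 in control, and fell by 3.35 (adjusted p = 7.1e-15). HIRA did not pass at -0.67 (adjusted p = 0.13). Under TMM scaling 21 of the list were lower and 1 higher, against 26.6% and 27.8% of all genes, shares that are not matched for read count.

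Genes of S phase, when the replication-dependent histones are made, fell in 27 of 28 cases and rose in 0, with a median of -2.65. That compares with 74.1% and 1.12% of all genes, and 89.6% fell among those with a mean count of at least 50 (median -2.1). Beside SLBP, RRM2, a subunit of ribonucleotide reductase, had 218, 417 and 245 scaled counts under arsenite, against 1890, 2800 and 2930 in control, and fell by 3.15 (edgeR adjusted p = 1e-13). MCM4, of the replicative helicase, had 216, 468 and 229 counts under arsenite, against 1950, 2490 and 2570 in control, and fell by 3.02 (adjusted p = 5.3e-13). E2F1 did not pass at -0.67 (adjusted p = 0.12). Under TMM scaling 22 of the list were lower and 1 higher, against 26.6% and 27.8% of all genes, shares that are not matched for read count.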
